A study of Mus musculus with 7 samples.

Results

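Ibuprofen given to mice bled from the tail vein was examined by comparing 1 blood RNA-seq library from tail vein collection with ibuprofen against 1 library from tail vein collection without it. These are 2 of the 7 mouse libraries of a serial blood collection study, all from cells labelled as peripheral blood mononuclear cells (PBMCs) and all taken at week 8 of collections. The others are a control named Non, which the design sets against the collection groups, a facial vein (FV) pair and a retro-orbital plexus (RP) pair, each pair with and without ibuprofen, and the tail vein pair is called TV below. Each group is 1 library, so every difference below has no replicate check and is described by size, with no p-value. The strain, sex and age of the mice, the dose and route of ibuprofen, the number of mice behind a library and any pooling are not stated in the labels.

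Ibuprofen is a reversible inhibitor of both cyclooxygenases, the enzymes that turn arachidonic acid into the common precursor of prostaglandins and thromboxane. Cyclooxygenase-1, encoded by Ptgs1, is made constitutively and in platelets feeds thromboxane synthesis, which promotes aggregation. Cyclooxygenase-2, encoded by Ptgs2, is induced in inflamed tissue and in activated leukocytes. A standard PBMC preparation holds lymphocytes and monocytes, and platelets, reticulocytes and some neutrophils can remain in it. In RNA from a mixture of cells, fewer cells of a type and less RNA per cell cannot be told apart.

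Levels below are CPM, counts rescaled to a common library size, on libraries scaled by the trimmed mean of M values (TMM), a difference is the log2 level with minus the log2 level without ibuprofen at a prior count of 2, and a gene was measured when its mean over both TV libraries was at least 10 CPM. At that level a gene had about 327 counts in the library without and 455 in the library with ibuprofen. Intervals in square brackets are 95% exact binomial intervals of the log2 ratio of the counts, and cover counting error only. Total counts were 59236490 without and 52925162 with ibuprofen, inside the range of 47903611 to 63801032 over all 7 libraries. Adult globin genes took 70.9% of counts without and 64.6% with ibuprofen, the highest values of the 7 libraries, where the others held 46.3% to 62.4%. The TMM factor of the library without ibuprofen was 0.553, the lowest of the 7, and that of the library with ibuprofen was 0.859. Outside erythroid genes, 3.08% of counts without and 1.68% with ibuprofen came from mitochondrial ribosomal RNA, against 1.04% in the control, 2.69% and 2.08% in the FV pair and 1.36% and 1.06% in the RP pair. The part of these library differences in the results was not tested.

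Of 6069 measured genes, 366 (6.03%) were at least 2-fold lower and 71 (1.17%) at least 2-fold higher in the library with ibuprofen, 7.2% in all. The median difference was -0.03, the middle 50% of genes lay between -0.41 and 0.26, and 70.1% lay within 0.5 of 0. At a limit of 4-fold, 3 genes were higher and 4 lower. The balance of directions depended on the scaling: with total counts and no TMM factors the median of all genes was 0.60, with 757 genes 2-fold higher and 15 lower, and with the deposited TPM values it was 0.39, with 202 higher and 4 lower. A minimum of 1 CPM gave 386 higher and 775 lower, and no minimum gave 2440 higher and 2357 lower. A scaling shifts all genes alike, so list medians are read below against the median of all genes. Just inside the 2-fold limit lay Tollip (-1.0003) and Ccr7 (1.0008), just outside it Mpst (-0.9987) and Pnpla8 (-0.9974), and just inside the 10 CPM limit Snrpe (10.0006 CPM), with Spata6 (9.9932 CPM) just outside.

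**Figure D1:**
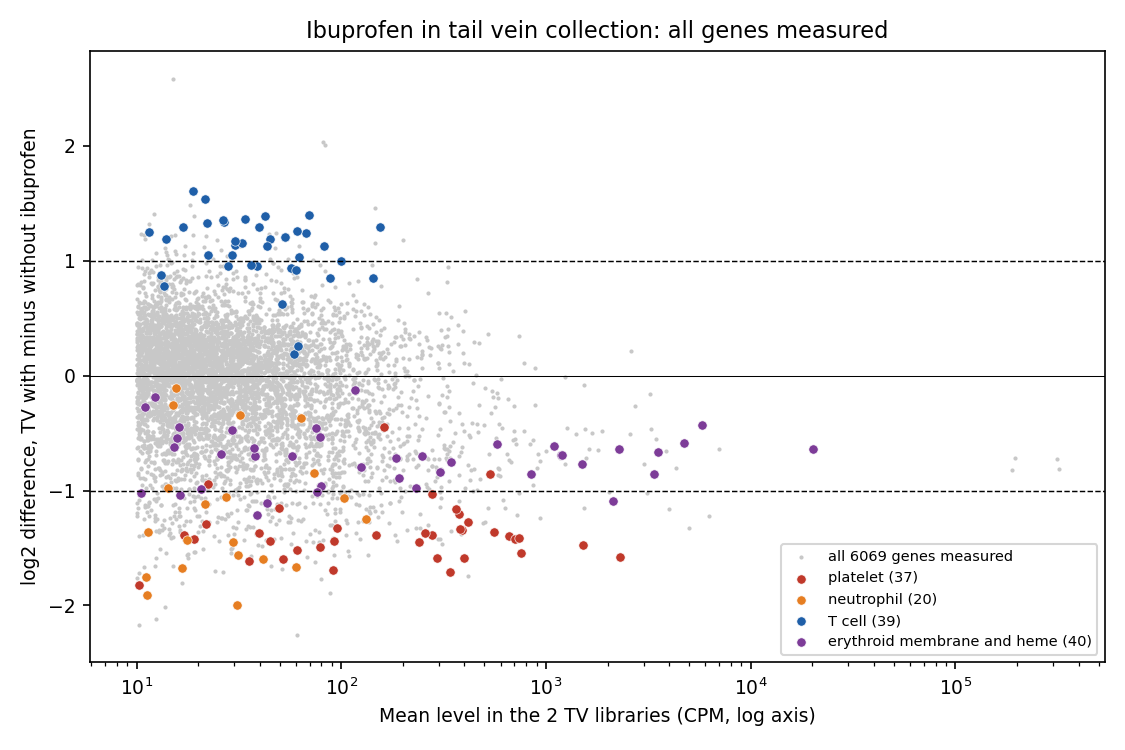
Log2 difference with minus without ibuprofen in the TV pair (vertical axis) against mean CPM of the pair (horizontal axis, log scale) for the 6069 measured genes, 1 point per gene. The 366 genes at least 2-fold lower outnumber the 71 at least 2-fold higher.

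Platelet and neutrophil lists had the lowest medians and the T cell list the highest. Platelet, neutrophil and classical monocyte genes were lower with ibuprofen, T cell genes were higher, and B cell and natural killer (NK) cell genes were higher by less. Of the 366 lower genes, 95 were members of any of the 30 lists, as were 35 of the 71 higher genes, which is 25.96% and 49.3%, against 538 (8.86%) of all measured genes. The lists were chosen with earlier results of these data known, so these shares are a description and no separate support. The distance of a list's median from the median of all genes kept its sign for platelet, neutrophil, classical monocyte, T cell, B cell, NK and erythroid lists in every scaling, filter and unit in which the list could be measured. Scalings could change this distance almost only through which genes passed the limit, so agreement between them is no separate support. Calls at 2-fold did shift: with total counts 3 of 16 neutrophil, 1 of 26 classical monocyte, 1 of 16 coagulation and none of 9 prostaglandin and leukotriene members were at least 2-fold lower, and 25 of 29 B cell and 9 of 9 NK members were at least 2-fold higher.

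**Figure D2:**
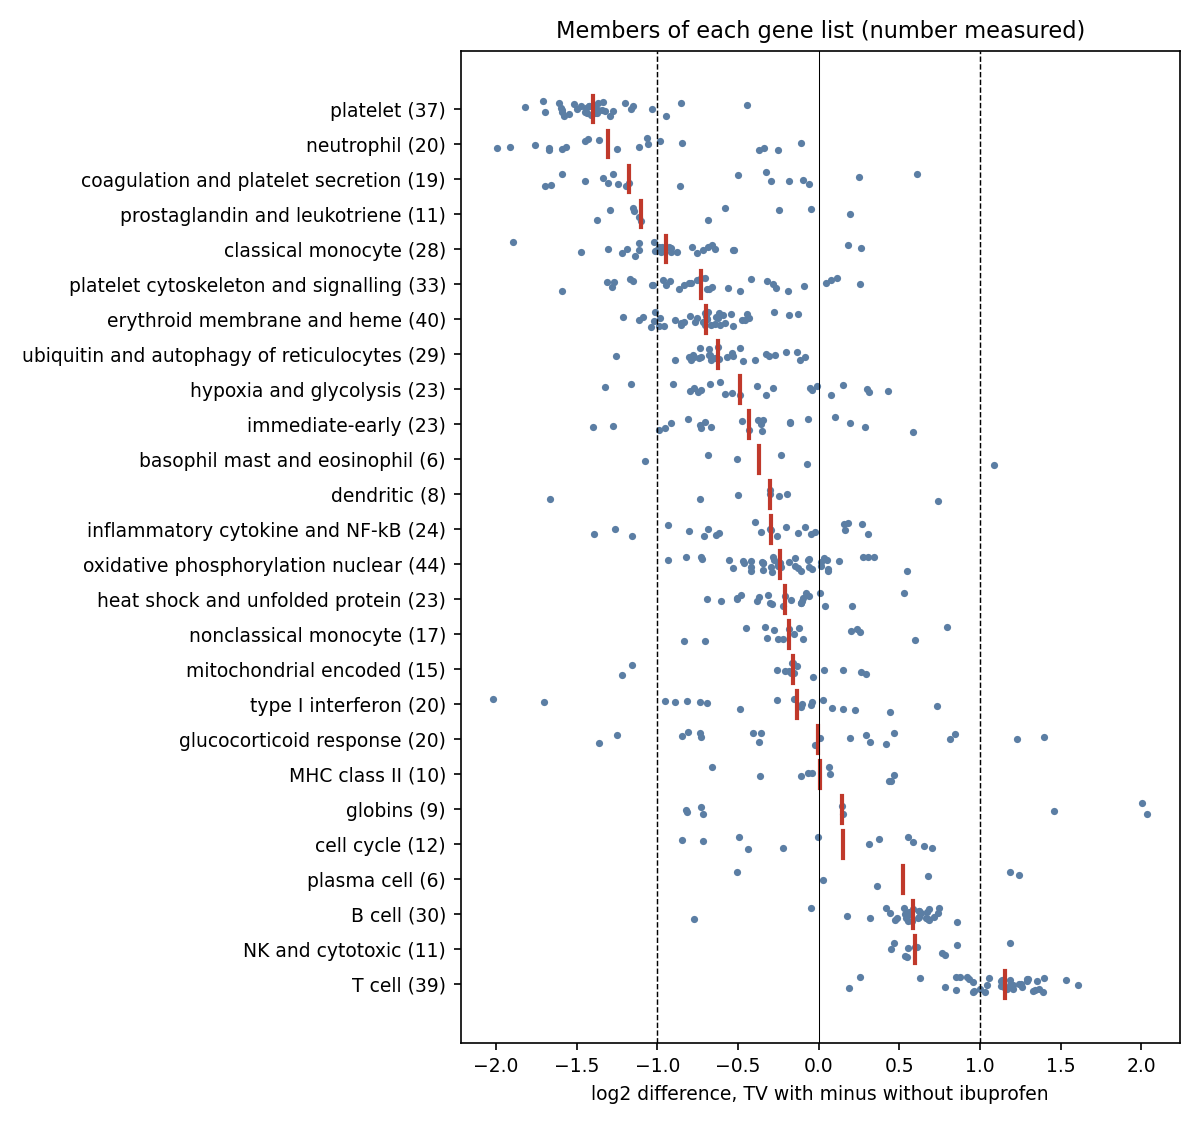
Log2 difference with minus without ibuprofen in the TV pair (horizontal axis) for the measured members of each gene list (vertical axis), 1 point per gene, with the list's median marked. Platelet members lie below 0 and T cell members above it.

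The label was checked against defining markers. Cd3e, a CD3 chain of the T cell receptor complex, was at 32.2 CPM without and 74.4 CPM with ibuprofen. Cd79a, a B cell receptor signalling chain, was at 102 and 157 CPM, and the monocyte marker Ly6c2 at 68.3 and 47.2 CPM. All 3 lineages of the label were present in both libraries. Genes of other sources were also present, as the globin share above shows and as 37 measured platelet genes show. None of 20 skin and hair genes was measured and 12 were at 0 counts in both libraries, while 1 of 18 skeletal muscle genes was measured and 10 were at 0.

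Promoter sequences are shown for a few members of the lists farthest from 0, because each holds the binding motif of a factor that marks its lineage. The sequences run from 250 bases before to 50 after the start, from RefSeq on GRCm38.p6, with the motif in capitals, and were picked after the values were seen. Gp5, a subunit of the platelet receptor for von Willebrand factor (chr16:30310732-30311031, minus strand), and Gp6, the platelet collagen receptor (chr7:4397695-4397994, minus strand), hold the GATA motif AGATAA. S100a8, a neutrophil and monocyte calcium-binding protein (chr3:90668821-90669120, plus strand), holds the PU.1 motif GAGGAAGT. Cd3d, a CD3 chain of the T cell receptor complex (chr9:44981536-44981835, plus strand), holds the TCF7 and LEF1 motif CTTTGAT.
Gp5: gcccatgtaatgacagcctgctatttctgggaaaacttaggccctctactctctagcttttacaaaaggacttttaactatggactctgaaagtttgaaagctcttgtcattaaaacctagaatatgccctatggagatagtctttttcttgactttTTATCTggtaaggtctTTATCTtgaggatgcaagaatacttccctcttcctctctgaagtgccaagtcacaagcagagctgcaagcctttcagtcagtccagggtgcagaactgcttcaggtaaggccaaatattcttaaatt
Gp6: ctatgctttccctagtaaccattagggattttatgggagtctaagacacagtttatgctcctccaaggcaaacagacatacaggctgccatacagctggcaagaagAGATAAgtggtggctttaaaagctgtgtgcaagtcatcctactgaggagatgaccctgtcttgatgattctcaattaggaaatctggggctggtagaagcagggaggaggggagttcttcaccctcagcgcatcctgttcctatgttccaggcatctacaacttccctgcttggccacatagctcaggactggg
S100a8: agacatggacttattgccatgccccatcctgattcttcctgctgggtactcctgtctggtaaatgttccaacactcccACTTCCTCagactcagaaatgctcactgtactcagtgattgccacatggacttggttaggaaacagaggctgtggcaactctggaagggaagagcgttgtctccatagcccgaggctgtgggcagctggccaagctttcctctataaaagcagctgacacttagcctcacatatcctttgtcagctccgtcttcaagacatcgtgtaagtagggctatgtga
Cd3d: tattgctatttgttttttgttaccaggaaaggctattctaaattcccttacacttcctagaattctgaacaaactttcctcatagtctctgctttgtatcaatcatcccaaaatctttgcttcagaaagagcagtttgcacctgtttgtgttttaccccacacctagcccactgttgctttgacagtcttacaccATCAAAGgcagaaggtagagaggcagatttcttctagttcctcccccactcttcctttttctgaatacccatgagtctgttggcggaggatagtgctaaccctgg
Motifs were searched on either strand in the 26997 promoters with a gene in the table, with 1 promoter kept for a gene. AGATAA was in 5 of 30 platelet promoters (16.7%) and 10 of 35 erythroid promoters (28.6%), against 11.3% of all promoters. GAGGAAGT was in 6 of 32 neutrophil promoters (18.8%) and 2 of 25 classical monocyte promoters (8%), against 3.29% of all, and CTTTGAT was in 2 of 27 T cell promoters (7.41%), against 3.7% of all. A match describes these letters only.

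Platelet genes were the group lowest with ibuprofen. Of 37 measured members of the platelet list, 34 were at least 2-fold lower and none was higher, with a median of -1.40, against 6.03% of all genes lower. With total counts 2 of 36 members were at least 2-fold lower and the median was -0.76, and with TPM none of 27 was and the median was -0.67, against 0.60 and 0.39 for all genes. The list's summed level was 18623 CPM without and 7055 CPM with ibuprofen, and it was 4652 CPM in the control. The library with ibuprofen therefore lay between the control and the library without, as it did in the list's share of total counts (1.03%, 0.606% and 0.522%).

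Among adhesion receptors, Itga2b, the alpha chain of the fibrinogen receptor, was at 1130.1 CPM without and 387 CPM with ibuprofen (-1.55 [-1.57 to -1.52]). In the other libraries it was at 269 CPM in the control, 616 and 821 CPM in the FV pair without and with ibuprofen, and 305 and 209 CPM in the RP pair. The TV library without ibuprofen was the highest of the 7 with TMM, whereas with total counts it was at 625 CPM and the FV library with ibuprofen at 1079.6 CPM. Itgb3, its beta chain, was at 556 and 219.7 CPM (-1.34). Gp1ba, Gp1bb, Gp5 and Gp9, the 4 subunits of the von Willebrand factor receptor, differed by -1.37, -1.44, -1.495 and -1.44, and Gp6 by -1.52. All 7 receptor genes were at least 2-fold lower, within a narrow range.

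Granule and secreted proteins were also lower. Vwf, which tethers platelets to the vessel wall, was at 599 and 199 CPM (-1.59 [-1.63 to -1.55]), Pf4, a platelet chemokine, at 524 and 228 CPM (-1.20), and Clu, which encodes clusterin, at 519 and 159 CPM (-1.71 [-1.75 to -1.67]). F5, coagulation factor V, differed by -1.44, F13a1, the A subunit of the fibrin-crosslinking factor XIII, by -1.33, and Mmrn1, a protein that binds factor V, by -1.70. Within the coagulation and platelet secretion list, 10 of 19 measured members (52.6%) were 2-fold lower, against 6.03% of all genes. None was higher, and the median was -1.17. Vesicle trafficking members spread, with Nbeal2 (-0.06) and Stxbp2 (-0.18) nearer 0 and Snap23 at 276 and 121 CPM (-1.19). Apoe, an apolipoprotein, was at 151 and 230.3 CPM (0.61).

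Cytoskeleton and signalling genes of platelets differed less as a group. Of 33 measured members, 8 (24.2%) were at least 2-fold lower, against 6.03% of all genes. None was higher, and the median was -0.73. The platelet myosin light chain Myl9 was at 441 and 147 CPM (-1.59 [-1.63 to -1.55]) and Tubb1, the platelet beta-tubulin, at 371 and 181 CPM (-1.03). The broadly expressed Tln1 (-0.68), Flna (-0.48) and Myh9 (-0.26), encoding talin, filamin A and non-muscle myosin, lay nearer 0.

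The prostaglandin and leukotriene list holds the target of the drug. Of its 11 measured members of 38, 6 (54.5%) were at least 2-fold lower, against 6.03% of all genes. None was higher, and the median was -1.10. With total counts the median was -0.05 over 9 members, against 0.60 for all genes. Its distance from the median of all genes was -1.07 with TMM and -0.65 with total counts. The median moved to -0.58 with a minimum of 1 CPM, when 27 members were measured. Ptgs1, cyclooxygenase-1, was at 68.1 CPM without and 30.7 CPM with ibuprofen (-1.15 [-1.25 to -1.05]). In the control it was at 17.6 CPM, in the FV pair at 33.5 and 48.8 CPM and in the RP pair at 21.8 and 11.96 CPM without and with ibuprofen. The TV library without ibuprofen was again the highest with TMM, whereas with total counts it was at 37.7 CPM and the FV pair at 39.2 and 64.1 CPM. Tbxas1, thromboxane synthase, was at 31.2 and 12.7 CPM (-1.29), and Alox12, the platelet 12-lipoxygenase, at 369.9 and 143 CPM (-1.37). Ptgs1, Tbxas1 and Alox12 are also members of the platelet list, so their differences are not separate from it, and the part of the lower platelet list in them was not tested. Ptgs2, cyclooxygenase-2, was below the 10 CPM limit, with 131 counts without and 53 with ibuprofen (4.00 and 1.17 CPM; -1.75 [-2.27 to -1.31]). Alox5ap, which presents arachidonic acid to 5-lipoxygenase, differed by -1.14, whereas Ptges3, a cytosolic prostaglandin E synthase and chaperone partner, differed by -0.05 and Lta4h, leukotriene A4 hydrolase, by 0.20.

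Neutrophil genes were lower. Of 20 measured members of 35, 14 (70%) were at least 2-fold lower, against 6.03% of all genes. None was higher, and the median was -1.30. S100a8 was at 49.4 CPM without and 12.4 CPM with ibuprofen (-1.99 [-2.14 to -1.86]). It was at 17.5 CPM in the control, 241 and 65.9 CPM in the FV pair and 18.8 and 27.6 CPM in the RP pair. Lrg1, a leucine-rich glycoprotein of granules, was at 17.7 and 4.69 CPM (-1.91), and Csf3r, the receptor for granulocyte colony-stimulating factor, at 185 and 77.98 CPM (-1.25 [-1.31 to -1.19]). Slfn4 (-1.76) and Lcn2, an iron-scavenging protein (-1.36), were lower as well. Retnlg (-0.11) and Pglyrp1 (-0.25) lay near 0, so the list was not uniform. The list's summed level was 1072 CPM without and 491 CPM with ibuprofen, against 555 CPM in the control. As shares of total counts these were 0.0592%, 0.0422% and 0.0622%, so the library without ibuprofen stood above the control with TMM and below it with total counts.

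Classical monocyte genes were lower by less. Of 28 measured members, 11 (39.3%) were at least 2-fold lower, against 6.03% of all genes. None was higher, and the median was -0.95. Vcan, the proteoglycan versican, was at 138 CPM without and 37.1 CPM with ibuprofen (-1.90 [-1.98 to -1.82]). Lyz2, lysozyme, was at 2721 and 1348 CPM (-1.01), Cd14, the lipopolysaccharide co-receptor, at 57.5 and 20.7 CPM (-1.47), and Ccr2, which guides monocytes out of bone marrow, at 377 and 199.7 CPM (-0.92). No measured nonclassical monocyte gene, of 17, was 2-fold lower or higher with TMM, and 2 of 17 were at least 2-fold higher with total counts. The median of that list was -0.18 with TMM, 0.45 with total counts and 0.43 with TPM, against -0.03, 0.60 and 0.39 for all genes.

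Red cell lineage genes were lower with TMM scaling, by less than platelet genes. Each of the 40 measured members of the erythroid membrane and heme list was below 0, with a median of -0.70. At least 2-fold lower were 6 (15%), against 6.03% of all genes. With total counts the median was -0.06 and with TPM -0.01, against 0.60 and 0.39 for all genes. Alas2, the erythroid enzyme that starts heme synthesis, was at 24648 CPM without and 15832 CPM with ibuprofen (-0.64), and Tal1, an erythroid and megakaryocyte transcription factor, at 54.4 and 23.4 CPM (-1.21). The 29 measured reticulocyte ubiquitin and autophagy genes, which take part in clearing organelles from young red cells, were all below 0 with TMM, and 1 was 2-fold lower. Their median of -0.62 stood at -0.01 with total counts and at 0.06 with TPM, against 0.60 and 0.39 for all genes. Among globins, the 4 adult genes differed by -0.82 to -0.72, whereas the embryonic beta-like globins Hbb-bh1 (32.1 and 132 CPM), Hbb-y (33.3 and 134 CPM) and Hbb-bh2 (77.8 and 214 CPM) were higher with ibuprofen (2.04, 2.00 and 1.46). Those 3 resemble the adult beta genes in sequence, and how the authors' counting shared reads among them is not given in the sources used here, so their values are uncertain.

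T cell genes were the group highest with ibuprofen. Of 39 measured members of 42, 27 were at least 2-fold higher, none was lower and all 39 lay above 0, with a median of 1.16, against 1.17% of all genes higher. The summed level was 1229 CPM without and 2542 CPM with ibuprofen, and it was 2399 CPM in the control. As shares of total counts these were 0.0679%, 0.218% and 0.269%, and the library without ibuprofen was below both others on either scale. With total counts 35 of 37 measured members were at least 2-fold higher.

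Cd8a, the alpha chain of the CD8 co-receptor on cytotoxic T cells, was at 11.1 CPM without and 32.2 CPM with ibuprofen (1.53 [1.37 to 1.71]). In the other libraries Cd8a was at 28.4 CPM in the control, 23.5 and 24.4 CPM in the FV pair and 33.99 and 35.5 CPM in the RP pair, so the TV library without ibuprofen was the lowest of the 7. Its beta chain Cd8b1 was at 9.29 and 28.3 CPM (1.61). Cd4, the helper T cell co-receptor, was at 39.1 and 74.8 CPM (0.93). Cd3d, Cd3e and Cd3g, the CD3 chains of the T cell receptor complex, differed by 1.34, 1.21 and 1.30. Naive T cell genes were in the same range: Tcf7, a transcription factor, was at 90.1 and 221 CPM (1.29), Il7r, the interleukin-7 receptor, at 38.3 and 101 CPM (1.40), and Ccr7, a lymph node homing receptor, at 66.6 and 133 CPM (1.00). Signalling genes spread more, with Prkcq, a kinase, at 0.19 and Skap1, an adaptor protein, at 1.33. All of these genes lay above 0, and they spanned co-receptors, CD3 chains, homing receptors and signalling proteins.

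B cell genes were higher by a smaller amount. Of 30 measured members, 28 were above 0 and none reached 2-fold, with a median of 0.58. Cd79a differed by 0.62, and Ighm, the immunoglobulin M heavy chain, was at 325 and 479 CPM (0.56). Cd24a, which red cell precursors also express, was at 1567 and 917 CPM (-0.77), and Btk, a kinase also of myeloid cells, at 28.4 and 27.5 CPM (-0.05). In plasma cell genes, of which 6 of 16 were measured, Igha, the immunoglobulin A heavy chain, was at 123 and 279 CPM (1.18) and Jchain, the joining chain, at 28.4 and 67.2 CPM (1.24), while Xbp1, a secretory-cell transcription factor, differed by -0.51. NK and cytotoxic genes numbered 11 measured of 27, all above 0 with a median of 0.60, and Eomes, a transcription factor, was the only one past 2-fold (1.19). Of 8 measured dendritic cell genes, only Siglech, a plasmacytoid dendritic cell receptor, was 2-fold lower, at 16.6 and 5.21 CPM (-1.66).

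Inflammation and stress lists had medians nearer to that of all genes than the platelet and T cell lists had. The 24 measured inflammatory cytokine and NF-kB genes had a median of -0.30. It was 0.34 with total counts, against 0.60 for all genes. With TPM it was 0.435 over 5 members, against 0.387 for all genes, so there it lay above them. With TMM 3 of the 24 (12.5%) were at least 2-fold lower, against 6.03% of all genes. These were Tlr2, a toll-like receptor (40.4 and 15.4 CPM; -1.39), Il1b, interleukin-1 beta (70.2 and 29.3 CPM; -1.26), and Tnfaip2, a TNF-induced gene (-1.16). Saa3, an acute-phase serum amyloid, was below the measuring limit, with 571 counts without and 39 with ibuprofen (17.4 and 0.858 CPM). Its level was 0.697 CPM in the control, 256 and 12.6 CPM in the FV pair and 0.676 and 0.157 CPM in the RP pair. With TMM the FV and TV libraries without ibuprofen stood above the rest. The order of TV without and FV with ibuprofen depends on the scaling. Summed neutrophil markers (1072 and 491 CPM) and classical monocyte markers (7539 and 4083 CPM) were lower in the TV library with ibuprofen. Their part in these differences was not tested. Tnfaip3, which ends NF-kB signalling, differed by 0.30. Immediate-early genes, switched on within minutes of cell stimulation, had a median of -0.43 over 23 measured members. It lay below the median of all genes in every setting, and minus that median it was -0.40 with TMM, -0.39 with total counts and -0.25 with TPM. Egr1, a transcription factor, was at 171 and 70.7 CPM (-1.28 [-1.34 to -1.21]) and Atf3, a stress-induced transcription factor, differed by -1.40. Fos was at 615 and 309 CPM (-0.99 [-1.02 to -0.96]), just short of 2-fold. Of the 23 immediate-early members 2 (8.70%) were at least 2-fold lower, against 6.03% of all genes. Another 4 lay above 0, among them Cd69 (0.58) and Dusp2 (0.29).

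Interferon genes showed a mixed picture. The 20 measured members had a median of -0.13, which was -0.49 at a minimum of 1 CPM, where all 35 members were measured, and -0.37 with erythroid genes left out. It lay below the median of all genes in every setting. Only Xaf1 (21.99 and 5.41 CPM; -2.02) and Ifit2 (37.1 and 11.4 CPM; -1.70), both interferon-induced, were 2-fold lower. These 2 were 10% of the list, against 6.03% of all genes. With TMM 14 members lay below 0 and 6 above it, among them Tgtp1 (0.74) and Ifi47 (0.44). Glucocorticoid response genes had a median of -0.01 over 20. With TMM 2 (10%) were at least 2-fold higher and 2 (10%) lower, against 1.17% and 6.03% of all genes. With total counts 6 of 16 were higher and none lower, and with TPM 3 of 7 were higher and none lower. Minus the median of all genes the list stood at 0.02 with TMM, 0.03 with total counts and 0.60 with TPM. Pik3ip1, an inhibitor of phosphoinositide 3-kinase, was at 11.2 and 26.4 CPM (1.23), whereas Cebpd, a transcription factor, differed by -1.25. Heat shock genes had a median of -0.21 over 23 and hypoxia and glycolysis genes a median of -0.48 over 23. Against the median of all genes the hypoxia list stood at -0.46 with TMM, -0.45 with total counts and -0.27 with TPM, and the heat shock list at -0.18, -0.15 and -0.02. Slc2a3, a glucose transporter that platelets also carry, was at 346 and 138 CPM (-1.32), and Ndrg1, a hypoxia-induced gene, at 136 and 60.5 CPM (-1.16).

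Cell cycle genes (median 0.15 over 12) and MHC class II genes (median 0.01 over 10) had no member past 2-fold with TMM. With total counts 3 of 9 cell cycle and 3 of 10 MHC class II members were at least 2-fold higher. Against the median of all genes the cell cycle list stood at 0.18 with TMM and -0.18 with total counts. The mitochondrially encoded mRNAs lay between -0.26 and 0.30, and the ribosomal RNAs mt-Rnr2 and mt-Rnr1 differed by -1.22 and -1.16. The 44 measured nuclear genes of oxidative phosphorylation had a median of -0.24, which against the median of all genes was -0.21 with TMM, -0.20 with total counts and -0.04 with TPM.

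Predicted genes, clones, pseudogenes and receptor segments were not named, which leaves out 3 genes among the largest lower differences and 1 among the largest higher. Several of the 15 largest differences that remained in each direction lay outside the lists. Among those lower were Sh3bgrl2 (644 and 192 CPM; -1.75), Lhfp (-1.76), Klra17 (-1.72) and Ms4a6d (-1.70), and among those higher were Tdrp (1.40), Vipr1, a receptor for vasoactive intestinal peptide (1.39), and Cd96, an adhesion receptor of T and NK cells (1.32). Ccdc6 was at 4.28 CPM without and 25.8 CPM with ibuprofen (2.59 [2.34 to 2.86]), and in the other 5 libraries it was between 17.6 and 28.8 CPM, so that the library without ibuprofen was the one set apart. Pcp4l1, a Purkinje cell protein 4-like gene, was at 107 and 39.1 CPM (-1.45). It was at 1.14 CPM in the control, 24.2 and 60.04 CPM in the FV pair and 1.79 and 24.9 CPM in the RP pair. Ly6g6c (25.8 and 7.37 CPM; chr17:35067325-35070048) and its neighbour Mpig6b, a platelet inhibitory receptor (124 and 36.3 CPM; chr17:35062693-35066848), differed by -1.80 and -1.77. The positions are those of RefSeq on the files' assembly, and whether the authors' counting kept strand or neighbouring genes apart is not given in the sources used here.

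**Figure D3:**
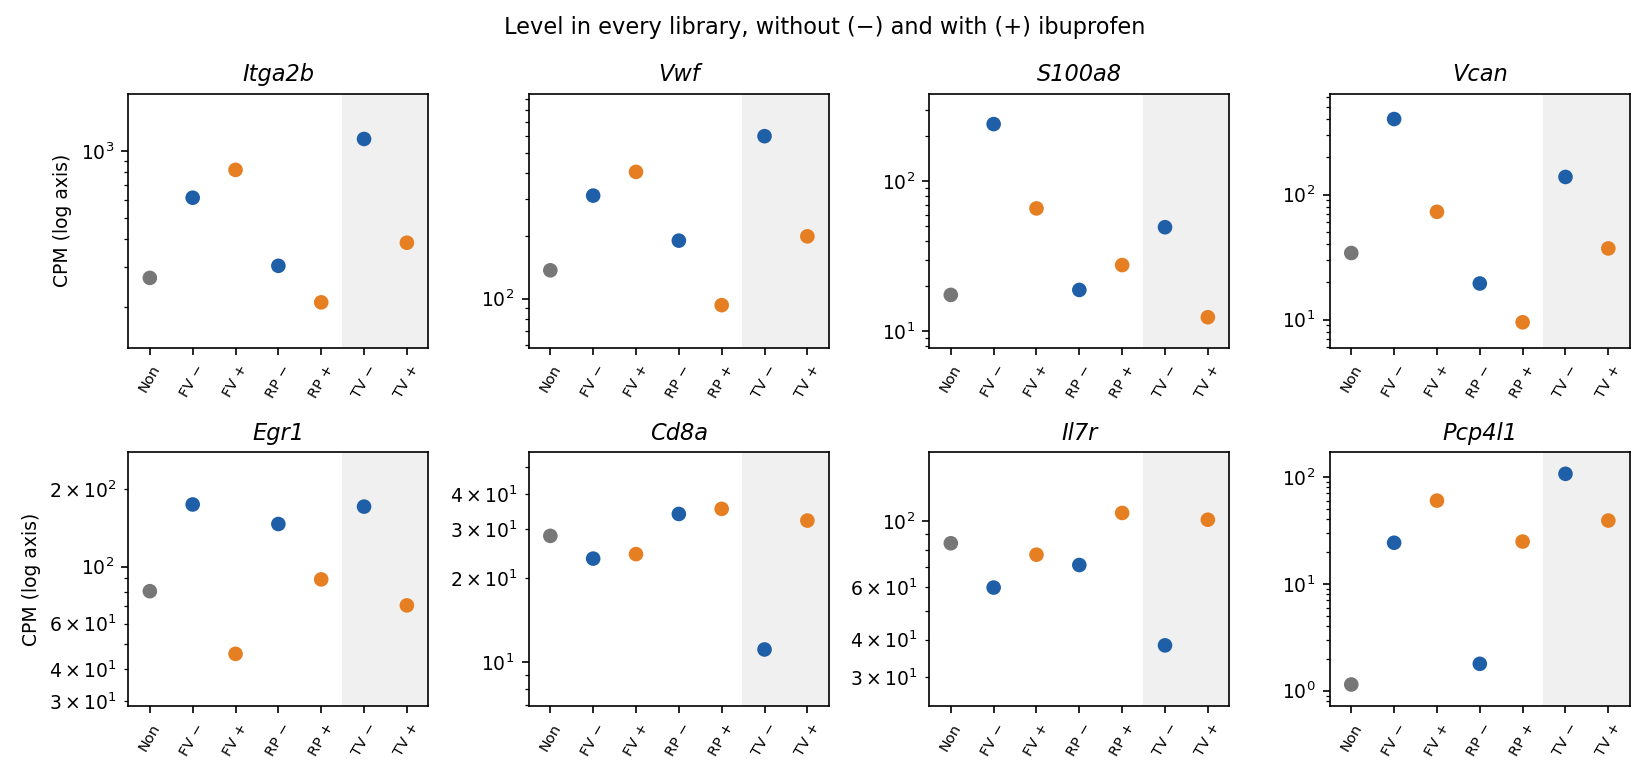
CPM on a log scale (vertical axis) of 8 genes in the 7 libraries (horizontal axis), 1 point per library. With TMM the TV library without ibuprofen (shaded pair) holds the highest Itga2b and Vwf value and the lowest Cd8a and Il7r value of the 7, and with total counts the FV library with ibuprofen is higher for Itga2b (1079.6 against 625 CPM) and Vwf (531 against 331 CPM).

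The same drug contrast was set beside TV in the FV and RP pairs, which share no library with it. At the same limits, 118 of 6239 genes (1.89%) were at least 2-fold apart in the FV pair, 32 higher (0.513%) and 86 lower (1.38%). In the RP pair 54 of 6050 genes (0.893%) were, 21 higher (0.347%) and 33 lower (0.545%), against 7.2% in TV. Of 352 TV-lower genes measured in FV, 30 (8.52%) were also 2-fold lower there, 44.8% of the 67 FV-lower genes, and 15 (4.26%) were 2-fold higher, out of 30 FV-higher genes. In the RP pair, 15 of 279 TV-lower genes (5.38%) were lower, 55.6% of the 27 RP-lower genes, and 6 (2.15%) were higher, 35.3% of the 17 RP-higher genes. No TV-higher gene was 2-fold higher in FV, of 68 measured there, and 2 of 71 (2.82%) were in RP, 11.8% of the RP-higher genes. Whether the effects differ between routes was not tested.

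Directions beyond the 2-fold limit were also compared, with no test. Of the 279 TV-lower genes measured in RP, 240 (86.0%) were below 0 in RP, where 57.9% of all genes were, and of 352 measured in FV 115 (32.7%) were below 0, where 45.15% were. Of 71 TV-higher genes 62 (87.3%) were above 0 in RP, against 43.0% of the 6050 genes measured in the RP pair. Of 68 measured in FV 60 (88.2%) were above 0, against 54.1% of the 6239 genes measured in the FV pair. The T cell median was 1.16 in TV, 0.52 in FV and 0.55 in RP. The platelet median was -1.40 in TV, 0.59 in FV and -0.72 in RP, and the neutrophil median was -1.30, -1.09 and -0.10. Vcan differed by -1.90, -2.46 and -1.03 in the 3 routes.

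**Figure D4:**
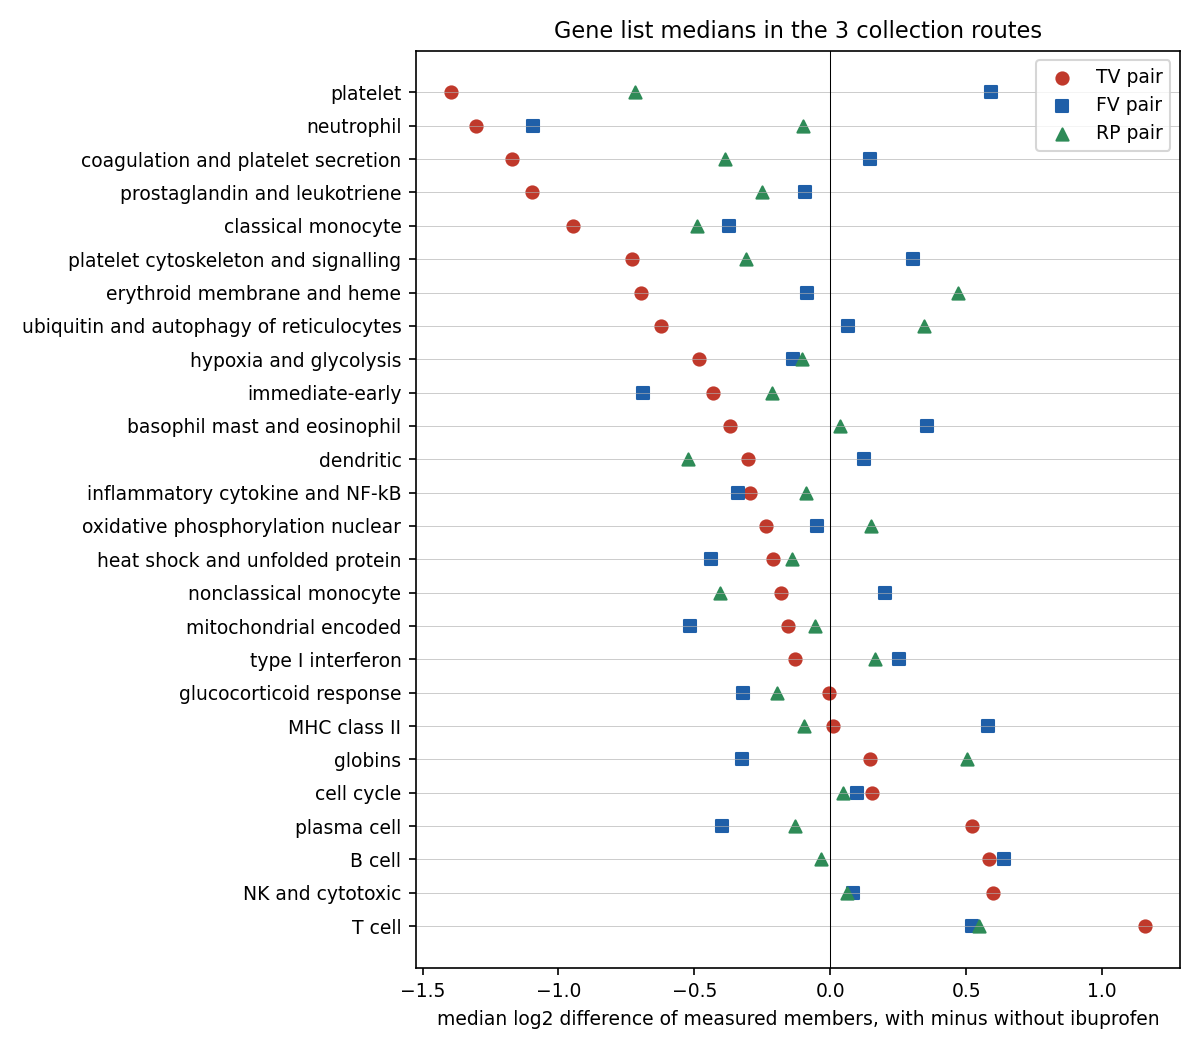
Median log2 difference with minus without ibuprofen of the measured members (horizontal axis) for each gene list (vertical axis) in the TV, FV and RP pairs, 1 library a side in each. The platelet list stands at -1.40 in TV and 0.59 in FV.

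Medians followed transcript length. From the shortest to the longest of 5 equal groups of measured genes the median difference was -0.19, -0.09, -0.01, 0.03 and 0.10, and the share at least 2-fold lower was 8.90%, 7.41%, 6.60%, 4.12% and 3.13%. Its part in the results was not tested.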

How the data were processed

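The authors deposited 1 gene table on the mm10 assembly with 3 values per gene and library. It holds read counts, FPKM and TPM as deposited, with no counting tool given in the sources used. The submitters' processing notes name Trimmomatic 0.38 and HISAT2 2.1.0, with no role stated, and the annotation and use of strand are not stated either. Per the labels' protocols, RNA was purified from PBMCs and libraries were made with a stranded mRNA kit. Counts of 45777 genes were used, and 45679 matched RefSeq entries on the same assembly. The deposited TPM values entered 1 alternative and the deposited FPKM values were not used.

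Counts were scaled by TMM over all 7 libraries (edgeR 4.0.16), log2 CPM took a prior count of 2, and genes averaging 10 CPM or more over the TV pair were described at a 2-fold limit. The steps were tested on simulated counts drawn from 1 pooled profile for all 7 libraries. That setting lacks the composition differences of the real libraries, so it cannot check the scaling on which the balance of directions depends. Alternatives were DESeq2 1.42.0 size factors, total counts, TMM over the TV pair, erythroid genes left out, other minimum levels and prior counts, and TPM. The 30 gene lists, the members and the rule for named genes (15 largest differences in each direction; from each list the 4 highest-level members and the 2 largest differences in each direction; Ptgs1, Ptgs2, Saa3, Pcp4l1 and Fos) were chosen with earlier results of these data known. Cd3e, Cd3g, Cd4, Gp1ba, Gp1bb, Gp5, Gp6, Gp9, Itgb3, Ly6c2, Nbeal2, Pf4, Stxbp2, Tnfaip2 and Tubb1 were named after their values were seen. So were B2m and the families of the closing section. Results for some genes are not reported here.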

Additional observations from a re-analysis of the deposited data

Results flagged for a closer look

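Among lists of 5 or more measured members with medians at least 0.5 from 0 in both routes, and named genes at least 2-fold apart in both, 1 list and 3 genes pointed in opposite directions in TV and another route. Over all genes, 15 were 2-fold lower in TV and 2-fold higher in FV, and 6 were in RP. Lists under the 0.5 limit also had medians of opposite sign, such as the erythroid list (-0.70 in TV, 0.47 in RP). Each route has 1 library a side, and none of these differences between routes was tested. The median of the platelet list was -1.40 in TV and 0.59 in FV. Ifit2, an interferon-induced gene, differed by -1.70 in TV and 1.12 in FV. Pcp4l1 differed by -1.45 in TV, 1.31 in FV and 3.77 in RP. Xaf1, also interferon-induced, differed by -2.02 in TV and 1.49 in RP.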

How the results depend on the processing

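No paired analysis was possible because each group is 1 library, and no library could be left out. Against 71 genes higher and 366 lower, total counts without TMM gave 757 higher and 15 lower, and the deposited TPM 202 higher and 4 lower, with medians of all genes of 0.60 and 0.39. A minimum of 1 CPM gave 386 and 775, no minimum 2440 and 2357, and erythroid genes left out 158 higher and 500 lower among 8963 genes. DESeq2 size factors gave 57 and 417, TMM over the TV pair 56 and 299, and a prior count of 0.5 gave 71 and 367. Of 77 named genes past 2-fold, 41 were past it with total counts and 28 with TPM. A gene at the 10 CPM limit had 327 counts (95% Poisson interval 293 to 364) without and 455 (414 to 499) with ibuprofen. With 1 library a side, mouse-to-mouse spread is unknown.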

Other observations

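Gene families defined by gene symbol were summarised after their values were seen, as values with no test. Some of their members are also in the lists above, such as Itga2b, Itgb3 and Tlr2, so the families are not separate from the lists. Clustered histone genes, whose transcripts mostly lack a poly(A) tail, numbered 9 measured, of which 8 were at least 2-fold lower with ibuprofen, with a median of -1.23 in TV, 0.56 in FV and -0.17 in RP. Gimap genes, small GTPases of lymphocytes, numbered 6 measured, all above 0 and 3 at least 2-fold higher, with a median of 0.99 in TV, 0.49 in FV and 0.34 in RP. MHC class I heavy chain genes had a median of 0.19 over 9 measured and none past 2-fold, whereas B2m, the light chain that pairs with them, was at 1319 CPM without and 558 CPM with ibuprofen (-1.24). In the control B2m was at 579 CPM. Cytosolic ribosomal protein genes had a median of 0.26 over 78 measured, with 1 at least 2-fold lower, and proteasome subunit genes a median of -0.04 over 34 with none past 2-fold. Of 14 measured integrin genes 5 were at least 2-fold lower and 13 lay below 0, and of 8 measured toll-like receptor genes 7 lay below 0. Among all measured genes 6.03% were at least 2-fold lower, 1.17% at least 2-fold higher and 47.7% above 0. All these counts are with TMM and depend on the scaling.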
